A study of Rattus norvegicus with 8 samples.

Results

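Hepcidin, the product of Hamp, and the genes of the BMP-SMAD pathway that control it were examined in livers of rats fed an iron-deficient diet and of rats fed the matching control diet. The genes were Hamp, Hfe, Hjv, Bmp6, Bmp2, Bmpr1a, Smad4, Id1, Smad6 and Smad7, chosen for their role in hepcidin control, and every probe set annotated to exactly 1 of these symbols was taken. This gave 20 probe sets for 10 genes, out of 31042 probe sets and 14217 named genes on the array. All rats were male Sprague-Dawley, an outbred stock, bought at 3 weeks and 7 weeks old at sampling, and 4 livers of each diet were hybridised, 1 array per liver. The iron-deficient diet was the control diet, a purified rodent formula in which microcrystalline cellulose stood in for ordinary cellulose, made without its ferric citrate. Rats were sampled on day 17 of the diet, after daytime meal feeding over the preceding days and a last feeding of 1.5 h. Blood hemoglobin of the iron-deficient rats had then reached 42% of the control level per the labels, which do not say which of the 7 iron-deficient and 6 control rats gave the arrays. The RNA is from whole liver, so a change in the number of cells of a type and a change in RNA per cell cannot be told apart.

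Hepcidin is a peptide hormone made by hepatocytes that binds the iron exporter ferroportin and brings about its degradation, so that less iron enters the blood. In the liver, sinusoidal endothelial cells release BMP6 and BMP2, which act on hepatocytes through BMP receptors and the co-receptor hemojuvelin (Hjv), and phosphorylated SMAD proteins then carry the signal to the Hamp promoter with SMAD4. The same signal induces Id1, Smad6 and Smad7 in hepatocytes, and the inhibitory SMADs among these feed back to restrain it. Iron loading is known to raise this signal in rodents and iron depletion to lower it, while inflammation raises Hamp through IL6 and STAT3, and erythropoietic demand and hypoxia lower it.

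The promoter of Hamp carries the sequences through which both signals are known to act, so its 250 bases before the RefSeq transcription start are shown, at chr1:95300272-95300521 on the minus strand of GRCr8. Capitals mark GGCGCC, the core of the BMP-responsive element, and TTCNNNGAA, the STAT motif. The proximal bases of Id1, at chr3:161671314-161671524 on the plus strand and ending just before the annotated gene, are shown for comparison because its values ran opposite to those of Hamp.
Hamp: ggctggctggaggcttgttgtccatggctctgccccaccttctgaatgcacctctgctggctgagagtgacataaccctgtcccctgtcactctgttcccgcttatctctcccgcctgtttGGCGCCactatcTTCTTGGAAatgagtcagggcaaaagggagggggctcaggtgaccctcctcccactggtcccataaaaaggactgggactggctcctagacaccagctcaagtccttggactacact
Id1: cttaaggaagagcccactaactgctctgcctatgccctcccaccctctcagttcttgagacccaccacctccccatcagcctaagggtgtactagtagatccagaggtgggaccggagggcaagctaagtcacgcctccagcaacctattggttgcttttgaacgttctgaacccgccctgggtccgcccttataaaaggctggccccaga
In the Hamp window GGCGCC lay at -129 to -124 and TTCTTGGAA at -117 to -109, counted from the transcription start, both motifs being searched on both strands. Over windows from 250 bases before to 50 bases after the start, 11.0% of all 33469 RefSeq promoters held GGCGCC, 8.87% held TTCNNNGAA and 0.547% held both. Of the 10 genes, 7 were in the promoter table. Within these 7, Smad7 held GGCGCC at -96 to -91 and at -36 to -31, and Hjv held TTCCTGGAA at -148 to -140. The windows of Id1, Bmp6, Bmpr1a and Smad4 held neither motif, but that of Bmp6 lies within the annotated gene rather than at its edge. Bases outside these windows were not searched, so elements farther from the start are not covered. The SMAD box CAGAC, found in 50.1% of all windows, was present only after the start, in Hjv and Id1. The E-box CACGTG, found in 6.42% of all windows, was in none of the 7.

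The values lie on a log2 scale, which was read from their range, since no source used here states it. Differences between arrays are compressed in them, and by amounts that vary between probe sets. The SD over the 8 arrays was 8.12e-06 for the median probe set of the table, and among the hepcidin and BMP-SMAD probe sets it ran from 1.21e-07 for a Smad6 probe set to 4.52 for Hamp. No fold changes are therefore given. Each difference, iron-deficient minus control, is given with its SE from limma and in units of the within-group SD, called the standardised difference. Adjusted p-values are from limma with Benjamini-Hochberg adjustment over all 31042 probe sets, and the threshold was 0.05. On every array the median was 7.12, with quartiles at 6.55 and 8.26. Hepatocyte markers stood at the top of the range, with Apoa1, the main protein of high-density lipoprotein, above 99.8% of all probe sets and Alb, albumin, higher still.

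Hamp was lower in all 4 iron-deficient livers, by the widest difference in the table. Its probe set read 6.98, 10.58, 6.99 and 6.93 in iron-deficient livers 1 to 4, against 16.01, 15.99, 15.99 and 16.10 in control livers 1 to 4. The groups did not overlap, and 3 of the 4 iron-deficient livers read below the median of their arrays while replicate 2 lay above the upper quartile. The mean was 7.87 ± 1.81 on the iron-deficient diet, against 16.02 ± 0.0514 on the control diet (SD, 4 livers each), a difference of -8.16 ± 0.864 with a standardised difference of -6.38. Of the absolute differences of the 31042 probe sets on the deposited scale, the next was 1.22. The limma adjusted p was 0.0735, so Hamp did not pass the threshold. An exact permutation test of the same difference, two-sided and not adjusted over other probe sets, gave p = 0.0286, the smallest that 4 against 4 arrays allow. It takes this value wherever the groups do not overlap, as they did not for 6.48% of all probe sets. When iron-deficient replicate 2, a liver picked out by this very measure, was dropped, the difference came to -9.06 (limma adjusted p = 2.79e-08), whereas dropping any other single array left the adjusted p between 0.121 and 0.231.

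The control values of Hamp lay at the top of the scale. They were within 0.0993 of 16, the top of a 16-bit scan on the log2 scale. Control livers 1 and 4 lay above 16, by 0.0107 and 0.0993, and control livers 2 and 3 lay below it. Each control value was the highest on its array, where the next probe set read 15.0025. On iron-deficient arrays 1, 3 and 4, 17150, 17006 and 17734 probe sets read above Hamp. Whether the control livers were saturated and whether Hamp was above background in those 3 iron-deficient livers was not tested, and detection calls were not used here. Iron-deficient replicate 2 exceeded the mean of the other 3, 6.96, by 3.61 and lay 5.45 below the control mean.

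**Figure D1:**
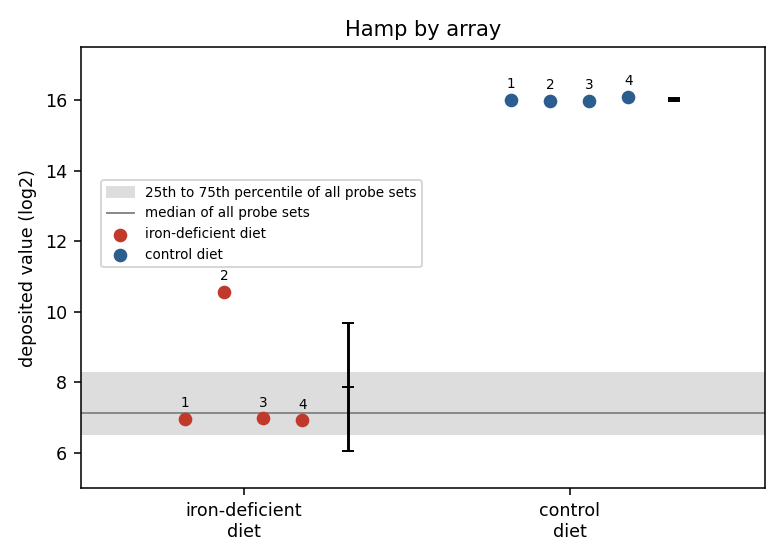
Deposited log2 values of the Hamp probe set by array, iron-deficient diet at left and control diet at right, with replicate numbers, the mean and SD in black (n = 4 each) and the quartile range of all probe sets in grey. Iron-deficient replicates 1, 3 and 4 lie between 6.93 and 6.99, replicate 2 at 10.58, and the control livers between 15.99 and 16.10.

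Of the 20 probe sets 0 passed the threshold in limma, against 10 of 31042, or 0.0322%, over the whole table (0.0226% higher and 0.00966% lower). At an unadjusted limma p under 0.05 there were 5 of 20, with 2 higher and 3 lower, where the table as a whole held 11.4% (5.2% higher and 6.2% lower). The groups did not overlap for 4 of 20 probe sets, 2 in each direction, against 6.48% of all probe sets (3.07% higher and 3.41% lower). In the deposited values these 4 were Hamp and a Bmp6 probe set, which were lower in iron-deficient livers, and Id1 and another Bmp6 probe set, which were higher. The mean was higher on the iron-deficient diet for 11 of 20, against 49.6% of all probe sets. The other 16 overlapped, with limma adjusted p from 0.345 to 0.999 and absolute standardised differences of at most 2.05. The median standardised difference of the 20 was 0.109, and that of all probe sets was -0.0105. The median of the absolute values was 0.680 for the 20 and 0.656 for all probe sets. Some signs turned under another scaling of the arrays (quantile normalization, that step without Hamp, or median centring). These were the signs of Bmpr1a, Hjv, Bmp2 1368945_at, Smad7 1368896_at and 1368898_at, every Smad4 and Smad6 probe set and 2 of the Bmp6 probe sets. Those signs, and those of Bmp2 1398270_at and Smad7 1368897_at, which did not turn, are given as values and not as directions. Where such a probe set is called higher or lower, the deposited values are meant. Median centring adds 5.06e-05 to every difference, while the median absolute difference of all probe sets was 4.49e-06. A negative difference smaller in size than that shift turns under it by construction.

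**Figure D2:**
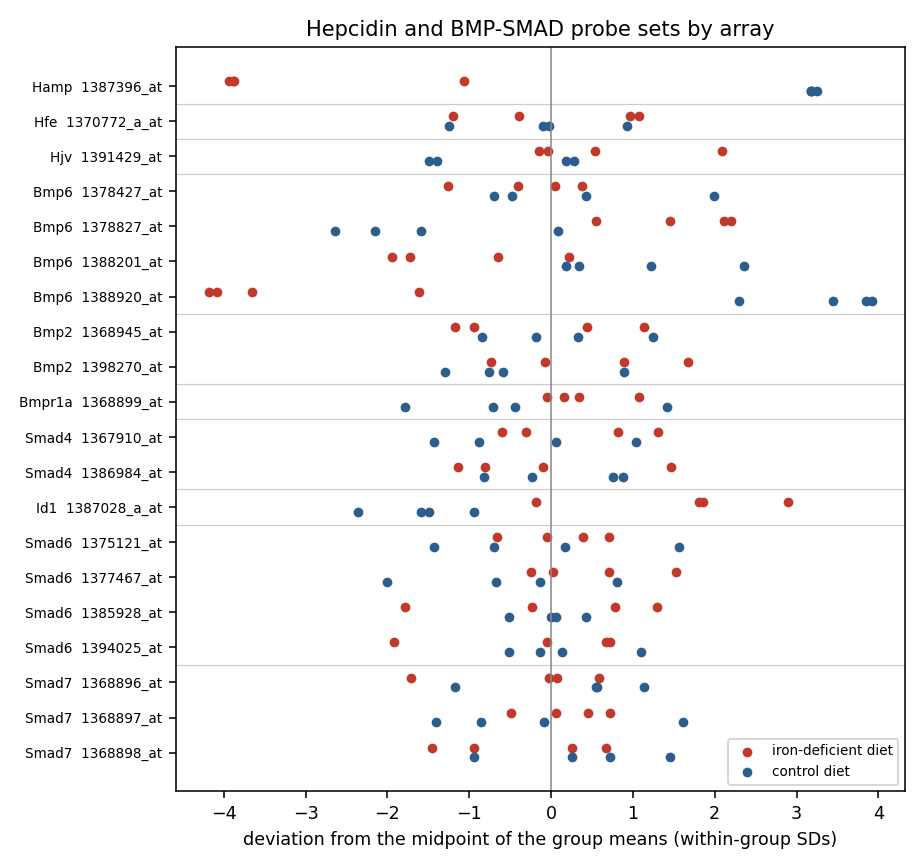
Each of the 20 probe sets by array, as the deviation from the midpoint of the group means in within-group SDs, with the iron-deficient diet in red above the control diet in blue. The colours separate for Hamp, Id1 and Bmp6 probe sets 1388920_at and 1378827_at, and mix in the other 16.

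Among genes that sense iron or serve as co-receptor, neither Hfe nor Hjv passed. Hfe encodes the MHC class I-like protein that binds transferrin receptors and whose loss causes hemochromatosis. Its probe set averaged 8.60630 on the iron-deficient and 8.60629 on the control diet, with a difference of 6.82e-06 ± 2.07e-05 (limma adjusted p = 0.945), and the groups overlapped. Hjv, hemojuvelin, read 93.32, 46.16, 37.26 and 220.3 millionths of a log2 unit above the control mean in iron-deficient livers 1 to 4. Control livers 1 to 4 read -64.80, -72.08, 64.12 and 72.76 on the same scale. All 4 iron-deficient livers were thus above the control mean, but 2 of them lay below the upper control livers. The difference was 9.93e-05 ± 5.53e-05, or 1.21 within-group SDs (limma adjusted p = 0.561).

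The ligand Bmp6 was measured by 4 probe sets that did not give 1 direction. Probe set 1388920_at read -296.8, -276.1, -292.8 and -196.3 millionths of a log2 unit from the control mean in iron-deficient livers 1 to 4, against 21.40, 18.62, -42.61 and 2.593 in control livers 1 to 4. It was lower in all 4 iron-deficient livers, without overlap. Its difference was -2.65e-04 ± 2.66e-05 with a standardised difference of -6.76, about that of Hamp, and the same limma adjusted p of 0.0735. Without iron-deficient replicate 4, the liver nearest to the controls, a liver picked out by this very measure, it differed by -2.89e-04 (limma adjusted p = 0.0453), while dropping any other single array left the adjusted p between 0.0978 and 0.231. The adjusted p was 0.199 under quantile normalization, 0.331 under that step without Hamp, 0.964 under median centring and 0.288 with a replicate block. Probe set 1388201_at ran the same way, at -297.4, -274.7, -168.0 and -80.98 millionths in iron-deficient livers, against -68.04, 18.90, -83.98 and 133.1 in control livers. Its groups overlapped narrowly, since iron-deficient replicate 4 was above control replicate 3, and the difference was -2.05e-04 ± 6.75e-05 (limma adjusted p = 0.345). These 2 probe sets correlated with each other over the 8 arrays at r = 0.836, given as a description of arrays that they share. With Bmp6 probe set 1378827_at, 1388920_at correlated at -0.829 and 1388201_at at -0.453, and with 1378427_at they correlated at 0.258 and -0.139. Probe sets 1378427_at and 1378827_at correlated with each other at -0.635.

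Probe set 1378827_at went the other way in the deposited values. It read 6.271, 3.522, 5.025 and 6.131 millionths above the control mean in iron-deficient livers 1 to 4, against -1.776, -0.0295, -0.9625 and 2.767 in control livers 1 to 4. The groups did not overlap and the difference was 5.24e-06 ± 1.32e-06, or 3.15 within-group SDs (limma adjusted p = 0.248), but it turned negative under quantile normalization, to -1.04e-05, or -5.90e-05 with Hamp left out of that step. The remaining one, 1378427_at, differed by -2.78e-06 ± 3.10e-06 with overlap of the groups. The 4 probe sets had means from 6.56 to 7.21. Of these, 1378827_at is just above the array median and 3 are under it, with 1388920_at close to the lower quartile of 6.55. Whether the 4 exceed background was not tested. Averaged over its 4 probe sets, Bmp6 differed by -1.17e-04 ± 2.13e-05 (limma adjusted p = 0.109), a mean that the 2 probe sets with the wider spread decide.

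**Figure D3:**
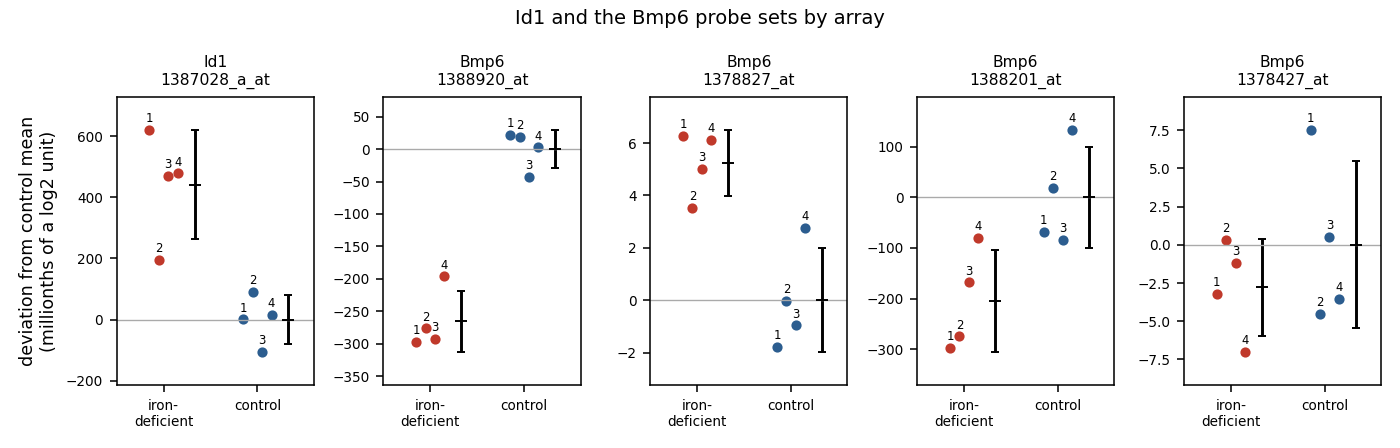
Id1 and the 4 Bmp6 probe sets by array, in millionths of a log2 unit from the control mean, iron-deficient diet at left and control diet at right, with replicate numbers and the mean and SD in black (n = 4 each; each panel has its own axis). Id1 is above the controls in all 4 iron-deficient livers, Bmp6 1388920_at below them and Bmp6 1378827_at above them.

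Bmp2, the ligand that maintains basal hepcidin in mice, had 2 probe sets and neither separated the diets. That of higher mean, 1398270_at, averaged 8.55096 in iron-deficient and 8.55093 in control livers, a difference of 2.28e-05 ± 1.76e-05 (limma adjusted p = 0.694). The other differed by -1.64e-06 ± 4.11e-06 (0.931). Bmpr1a, a type I BMP receptor of hepatocytes, differed by 4.15e-06 ± 3.76e-06 (limma adjusted p = 0.746). Its iron-deficient values all lay above the control mean, at 1.811 to 7.934 millionths, but within the control range of -7.688 to 9.784. Smad4, the SMAD shared by BMP and TGF-beta signals, had 2 probe sets with differences of 4.06e-05 ± 4.56e-05 and -8.99e-07 ± 2.19e-06 (limma adjusted p = 0.803 and 0.929), and their groups overlapped. Since the compression of these probe sets is unknown, their small differences do not show that the transcripts were alike.

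Id1, a helix-loop-helix inhibitor and a standard readout of BMP-SMAD signalling, was higher in iron-deficient livers, the direction opposite to that of Hamp. It read 620.2, 195.0, 469.8 and 477.6 millionths of a log2 unit above the control mean in iron-deficient livers 1 to 4, against 0.7528, 90.34, -105.8 and 14.67 in control livers 1 to 4. The groups did not overlap, and iron-deficient replicate 2, the liver with the highest Hamp of its group, was also the one whose Id1 was closest to the controls. The mean was 7.96197 ± 1.78e-04 on the iron-deficient diet, against 7.96153 ± 8.08e-05 on the control diet (SD, 4 livers each). The gap of 4.41e-04 ± 9.33e-05, a standardised difference of 3.19, did not pass (limma adjusted p = 0.189). It kept its sign under every alternative that was run, between 2.96e-04 and 5.23e-04, but passed in none of them. The limma adjusted p was 0.231 under quantile normalization, 0.392 under that step without Hamp, 0.964 under median centring and 0.444 with a replicate block.

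The inhibitory SMADs, which are themselves BMP targets, showed no separation. The 4 Smad6 probe sets differed by 5.65e-07 ± 2.08e-06, 9.59e-06 ± 6.51e-06, 3e-09 ± 6.97e-07 and -5.56e-07 ± 1.46e-06, with limma adjusted p from 0.644 to 0.999. The 3 Smad7 probe sets differed by -4.98e-06 ± 6.29e-06, 4.55e-07 ± 1.08e-06 and -1.15e-06 ± 1.25e-06 (limma adjusted p from 0.797 to 0.926). Within each gene the probe sets disagreed in sign and all groups overlapped. Of the 20 probe sets, Smad6 probe set 1385928_at had the narrowest range over the 8 arrays, 4.04e-07.

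Beside these 10 genes, 85 measured genes of 8 companion lists were described, each by its probe set of highest mean. Of the 85, only Tfrc passed the threshold, where 0.0422% of all 14217 genes did. The groups did not overlap for 14 of the 85, 10 higher and 4 lower, where all genes gave 7.82%. At an unadjusted limma p under 0.05 there were 13 higher and 7 lower, or 23.5%, where all genes gave 13.2%. The median standardised difference was 0.285 over the 85 and -0.0727 over all genes.

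Among 6 measured partners in iron sensing, Tfrc, the transferrin receptor that competes with its relative for HFE, rose. Its probe set of higher mean read 11.0206, 11.0216, 11.0161 and 11.0167 in iron-deficient livers 1 to 4, against 10.9812, 10.9823, 10.9824 and 10.9797 in control livers 1 to 4. The difference was 0.0373 ± 0.00145 (limma adjusted p = 0.0012). The other Tfrc probe set, 1371113_a_at, rose too, at 8.9383, 8.9356, 8.9246 and 8.9359 in iron-deficient livers 1 to 4, against 8.8628, 8.8506, 8.8399 and 8.8397 in control livers 1 to 4, a difference of 0.0854 ± 0.006 (limma adjusted p = 0.0183). Iron-deficient replicate 2 had the highest value of its group on the probe set of higher mean and the third highest on the other. Tfr2, the hepatocyte receptor thought to pass transferrin saturation to hepcidin, differed by 4.31e-06 ± 1.98e-06 (0.480), with overlap. Furin, a convertase that cleaves prohepcidin, and Spint2, an inhibitor of serine proteases, were lower in all 4 iron-deficient livers without passing. Their differences were -6.86e-05 ± 1.83e-05 and -2.73e-06 ± 8.64e-07 (limma adjusted p = 0.265 and 0.332). Under other scalings both Tfrc probe sets kept sign and call, but with a replicate block no gene of this list passed. Furin turned under quantile normalization, Spint2 under median centring, and Tfr2 under both quantile forms. Tfr2 (-9.45e-04) and Spint2 (-5.38e-04) passed as lower under quantile normalization without Hamp.

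Other BMP family ligands and antagonists had 11 of 19 means higher and none passed, but 7 were higher under quantile normalization, 6 under that step without Hamp and 17 under median centring. Counts under these 3 scalings are given below in the same order. Those under median centring include the shift of 5.06e-05 toward higher that it adds to every difference. Inhbb, the activin B subunit, had the largest standardised difference of these, 3.24, averaging 6.3595 on the iron-deficient and 6.3446 on the control diet, below the lower quartile of the arrays. The difference was 0.0149 ± 0.00311 (limma adjusted p = 0.184), and it passed under median centring. Bmper, a secreted BMP modulator, differed by 7.55e-06 ± 1.99e-06 and the secreted protease Htra1 by -1.29e-04 ± 4.29e-05 (limma adjusted p = 0.264 and 0.349), and the sign of Bmper turned under both quantile forms. Other receptors had 5 of 9 means higher and a median standardised difference of 0.0852, and none passed, with 5, 2 and 9 higher under the 3 scalings. Acvrl1, an endothelial type I receptor, differed by 2.14e-05 ± 7.01e-06, Acvr2a, a type II activin receptor, by 6.25e-05 ± 2.51e-05 and the pseudoreceptor Bambi by 4.11e-05 ± 2.04e-05, of which Acvr2a and Bambi turned under quantile normalization without Hamp. Other SMADs and their regulators had 10 of 14 means higher and none passed, with 10, 9 and 14 higher under the 3 scalings. Tgif1, a co-repressor of SMADs, differed by 6.43e-04 ± 2.38e-04, Smad3, a SMAD of TGF-beta signals, by -3.77e-05 ± 1.79e-05 and Smad5, a SMAD of BMP signals, by -1.93e-06 ± 1.39e-06, of which Smad3 and Smad5 turned under median centring.

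Other BMP target genes did not share the direction of Id1 as a list, with 4 of 9 means higher, 4 lower and 1, that of Msx2, equal, and with 4, 2 and 7 higher under the 3 scalings. Id2, a relative of Id1, was higher in all 4 iron-deficient livers on its probe set of higher mean, by 0.0133 ± 0.00510 (limma adjusted p = 0.406), while the other Id2 probe set differed by -8.01e-04 ± 0.00788. The transcription factors Snai1 and Msx1 differed by 2.08e-05 ± 7.84e-06 and -1.59e-05 ± 7.55e-06, and neither passed or kept its sign under every scaling.

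Genes of the inflammatory arm had 9 of 11 means higher and none passed, and under the 3 scalings 7, 3 and 10 were higher. Il1b, an inflammatory cytokine, was lower in all 4 iron-deficient livers, with a difference of -1.23e-05 ± 2.73e-06 (limma adjusted p = 0.209) that turned under median centring. The kinases Jak2 and Jak1 differed by 4.41e-06 ± 1.45e-06 and 9.90e-07 ± 8.08e-07. Jak2 turned under both quantile forms, to -1.96e-04 and -2.84e-04. Jak1 passed under quantile normalization, with a difference of 0.00162, but not with Hamp left out of that step, where the difference was 0. As the mean of values scaled to unit SD over the 8 arrays, this list stood at -0.163, -0.224, 1.23 and -0.165 in iron-deficient livers 1 to 4, against -0.595 to 0.0423 in control livers, so that replicate 3 stood apart. Erythroid and hypoxia suppressors of hepcidin had 6 of 9 means higher, a median standardised difference of 1.05 and none past the threshold, with 6, 4 and 9 higher under the 3 scalings. Gdf15, a cytokine of expanded erythropoiesis, was higher in all 4 iron-deficient livers by 1.23e-04 ± 3.04e-05 (limma adjusted p = 0.244), at means of 6.43 below the lower quartile. Fgl1, a hepatocyte protein that antagonises BMP6, differed by 8.15e-04 ± 3.19e-04 (0.414) and Epas1, the oxygen-regulated factor HIF-2 alpha, by 8.83e-06 ± 4.10e-06 (0.482). Both passed under quantile normalization, with differences of 0.00321 and 0.00311, but not with Hamp left out of that step, at 0 and 1.78e-05.

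Transcription factors of the Hamp promoter had 8 of 11 means lower, 3 higher, a median standardised difference of -0.800 and none past the threshold, but under the 3 scalings 9, 4 and 7 were higher. Usf2, an E-box factor and the next annotated protein-coding gene to Hamp on chromosome 1 in GRCr8, had the largest standardised difference, -4.11. It read 9.155603, 9.155501, 9.155546 and 9.155472 in iron-deficient livers 1 to 4, against 9.155750, 9.155903, 9.155944 and 9.155786 in control livers 1 to 4. The groups did not overlap, and the difference was -3.16e-04 ± 5.20e-05 (limma adjusted p = 0.127), and it turned positive under quantile normalization, though not with Hamp left out of that step. Another Usf2 probe set was also lower in all 4, with a difference of -9.72e-04 ± 1.96e-04 (0.168). The remaining one differed by 1.74e-05 ± 9.34e-06 with overlap, and turned under both quantile forms. Of the other neighbours, looked up after the values of Usf2 were seen, Lsr differed by 1.55e-05 ± 1.26e-05, Mag by -2.09e-06 ± 1.90e-06 and Cd22 by 5.16e-06 ± 8.25e-06, with overlap in each. Lsr and Cd22 turned under quantile normalization without Hamp, and Mag under all 3 scalings. The liver factors Cebpb and Foxa1 differed by 7.16e-04 ± 2.23e-04 and -1.06e-04 ± 4.10e-05 (limma adjusted p = 0.324 and 0.412). Foxa1 turned under quantile normalization, to 1.02e-04, and its difference was 0 with Hamp left out of that step.

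Markers of other liver cell types were set beside these values. Of 10 measured endothelial markers 8 had higher means, 6 of them without overlap of the groups, where all genes gave 7.82% in either direction. None of the 10 passed. Under the 3 scalings 10, 9 and 9 were higher. Their median standardised difference was 3.03, and their mean scaled level ran from 0.0437 to 0.749 on the iron-deficient and from -0.774 to -0.139 on the control diet. Their summed log2 levels ran from 90.1375 to 90.1402 on the iron-deficient and from 90.1327 to 90.1338 on the control diet. Stab2, a scavenger receptor of sinusoidal endothelium, differed by 0.00225 ± 3.71e-04 (limma adjusted p = 0.127) and its relative Stab1 by -9.06e-05 ± 4.68e-05 (0.530, turned under both quantile forms). The endothelial level was 0.749, 0.747, 0.0437 and 0.362 in iron-deficient livers 1 to 4. Stellate cell markers had higher means for 7 of 10, 4 of them without overlap of the groups, and none passed. Under the 3 scalings 6, 6 and 10 were higher. Their scaled levels were 0.279 to 0.735 on the iron-deficient and -0.549 to -0.283 on the control diet. Their summed log2 levels were 80.0068 to 80.0190 on the iron-deficient and 80.0009 to 80.0046 on the control diet. The retinol-esterifying enzyme Lrat differed by 2.82e-04 ± 5.15e-05 and the matrix proteoglycan Dcn by 0.00276 ± 6.23e-04 (limma adjusted p = 0.140 and 0.213). Stab2 passed under median centring and Lrat under both quantile forms. The part of either cell type in the Id1 and Bmp6 differences was not tested. Hepatocyte markers were higher for 5 of 9, or 9, 1 and 9 under the 3 scalings. Their scaled levels were -0.235 to 0.402 on the iron-deficient and -0.702 to 0.332 on the control diet. Alb differed by -5e-09 as deposited, by 0.598 under quantile normalization and by 0 with Hamp left out of that step. Apoa1 differed by 0.00449 and 0 under the quantile forms, and a difference of 0 was not counted as higher. Alb read 15.002461 on all 8 arrays and some other markers of the list were as even. How far these levels follow hepatocyte content was not tested. Of 8 Kupffer cell markers 8 had higher means, but only 2 under quantile normalization without Hamp, at scaled levels of -0.597 to 0.939 on the iron-deficient and -1.11 to 0.288 on the control diet. Cd68 and Cd163 differed by 6.41e-05 ± 9.09e-05 and 8.66e-05 ± 7.10e-05, and both turned under quantile normalization without Hamp. Erythroid markers were higher for 4 of 5, lymphocyte markers for 3 of 7, neutrophil markers for 4 of 5 and cholangiocyte markers for 2 of 5, and the scaled levels of the diets overlapped in each. Under the 3 scalings 3, 2 and 4 erythroid, 3, 1 and 7 lymphocyte, 3, 3 and 5 neutrophil and 1, 1 and 3 cholangiocyte markers were higher. Iron-deficient replicate 2 was the liver with the highest Hamp of its group. In it Kupffer, erythroid, lymphocyte, cholangiocyte and stellate cell markers were the lowest of that group, at -0.597, -0.623, -0.335, -0.344 and 0.279. Neutrophil markers were the highest of the group there, at 0.764. The part of any cell type in that Hamp value was not tested. The first 2 measured genes of the erythroid, lymphocyte, neutrophil and cholangiocyte lists follow in that order, and none of them passed. The differences were -0.00152 ± 0.00218 for Hbb and 0.00799 ± 0.00445 for Alas2, then 2.81e-04 ± 1.26e-04 for Ptprc and -3.95e-06 ± 1.73e-06 for Cd3e. S100a8 differed by 1.62e-04 ± 1.87e-04 and S100a9 by 0.00142 ± 9.29e-04, Krt19 by -5.54e-05 ± 8.80e-05 and Krt7 by 5.16e-06 ± 7.86e-06. Hbb turned under quantile normalization, Cd3e under that step and median centring, and Krt7 under both quantile forms.

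**Figure D4:**
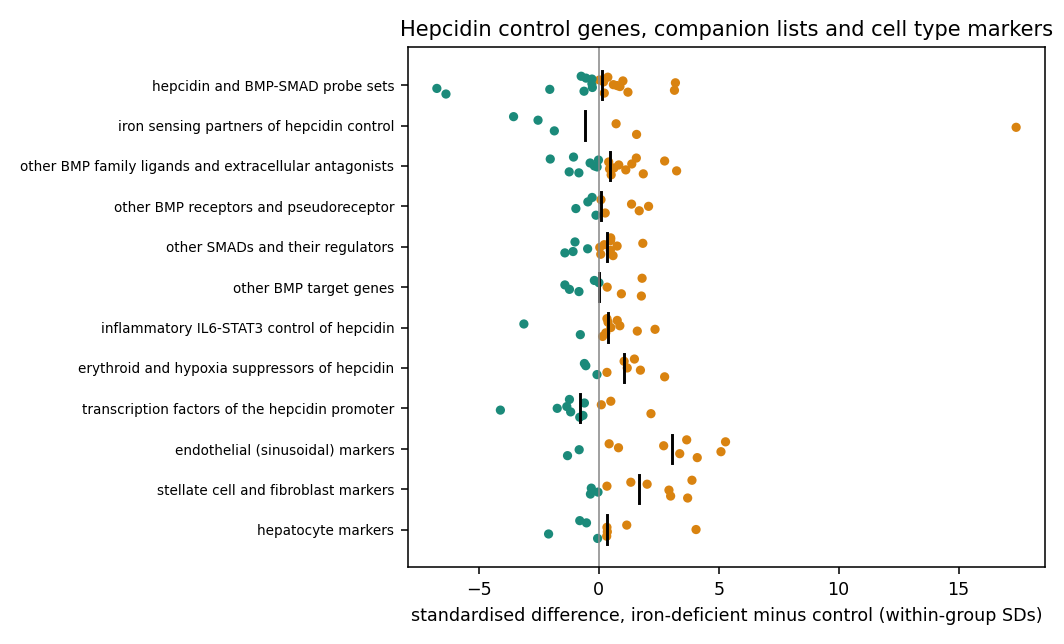
Standardised differences, iron-deficient minus control in within-group SDs, of the 20 probe sets at the top, of the genes of 8 companion lists and of 3 marker lists, with the median of each as a black bar and points above 0 in orange, others in teal. The point at 17.4 is Tfrc, and the medians are 0.109 for the 20 probe sets and 3.03 for endothelial markers.

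The genes whose values ran closest to Hamp and Id1 over the 8 arrays are named as a description. All share the same 8 arrays and the split between the diets. The 5 with the highest Pearson correlation with Hamp were Ccdc159 (0.976), Zfp574 (0.974), Chrne (0.971), Elp2 (0.970) and Arrdc1 (0.969). Of these, Arrdc1 passed the threshold, with a difference of -1.75e-05 ± 1.39e-06 (limma adjusted p = 0.0298), and the differences of Ccdc159 and Zfp574 were -1.61e-06 and -3.61e-07. All 5 turned positive under median centring, and Ccdc159, Zfp574 and Elp2 did so under both quantile forms as well, where Zfp574 passed as higher. The 5 with the lowest were Acer2, C1qtnf1 and Ifitm2 (-0.982 each), Slc28a2 (-0.981) and Bhmt (-0.978). Acer2, an alkaline ceramidase, read 8.0510, 8.0455, 8.0501 and 8.0526 in iron-deficient livers 1 to 4, against 8.0321, 8.0320, 8.0297 and 8.0353 in control livers 1 to 4. With Id1 the highest were Slc28a2 (0.979), Tacc1 (0.975), Hoxb2 (0.970), Klf2 (0.964) and C5l1 (0.959), and the lowest Dgkq (-0.973), Tefm (-0.965), Fam184a (-0.962), Borcs6 (-0.956) and Znf846 (-0.956). Klf2, a flow-responsive factor of endothelium, read 8.8305, 8.8205, 8.8255 and 8.8256 in iron-deficient livers 1 to 4, against 8.8158, 8.8202, 8.8173 and 8.8191 in control livers 1 to 4. Slc28a2, a nucleoside transporter, stood in both lists, and its limma adjusted p was 0.0735.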

How the data were processed

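Liver RNA was measured on Affymetrix rat arrays, 1 per liver, from biotinylated cRNA made from 2 ug of total RNA per the labels' protocols. The authors deposited 1 log2 value per probe set and array, a unit read from the values, and for the summary and normalization of probes the method is not stated in the labels or the file. No detection calls were used. The number of arrays, 4 per diet, limits the precision.

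Of 31099 probe sets, 57 controls were left out. Of the rest 20826 had 1 symbol in the platform annotation, 436 several and 9780 none, and 20758 were matched by gene identifier to RefSeq, which updated their symbols. Promoters are from RefSeq (GRCr8). The diets were compared with limma 3.58.1 (lmFit, eBayes) in R 4.3.3 on the deposited values without a block, with Benjamini-Hochberg adjustment over all probe sets, a script tested on simulated data. The exact permutation test used scipy 1.17.1. Alternatives were quantile normalization with and without Hamp, median centring, a filter on the dimmest probe sets, 2 eBayes options, a replicate block, probe sets averaged by gene and each array left out. Same-numbered arrays of the 2 diets did not deviate together (correlations from -0.111 to 0.0245), so the numbers were not taken as pairs. Other genes named are the 3 of each companion list with the largest absolute standardised difference, any past the threshold, further probe sets of these genes, the first 2 measured markers of each cell type, and the 5 nearest to Hamp and Id1 at each end. Tfr2, Msx2 and the neighbours of Hamp fall outside this rule and were named after their values were seen. Members and lists were chosen with earlier results of these data known.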

Additional observations from a re-analysis of the deposited data

Results flagged for a closer look

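Among 40 groups of 4 arrays, made of 20 probe sets and 2 diets, a single array stood far from the other 3 of its group in 1 case, where chance flags about 1 in 20 groups. This was Hamp in iron-deficient replicate 2, at 10.577451, whose gap to the nearest of the others was 0.984 of the range of the group, above Dixon's critical value. In the same liver Id1 was the closest of its group to the controls, 195.0 millionths of a log2 unit above their mean. Tfrc in that liver was the highest of its group on probe set 1388750_at, at 11.0216, but the third highest on 1371113_a_at, at 8.9356.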

How the results depend on the processing

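The Hamp difference stayed between -9.06 and -7.65 in all alternatives. It passed under quantile normalization (-7.65, limma adjusted p = 0.00255), with Hamp kept apart from that step (-8.16, 0.0225) and under median centring (-8.16, 4.67e-04). Leaving out 1 array at a time gave -9.06 to -7.84, with limma adjusted p from 2.79e-08 to 0.231, and Hamp passed only without iron-deficient replicate 2. The 20 probe sets held 2 calls under quantile normalization, 1 under it without Hamp and 1 under median centring, and 0 to 1 with an array left out. With probe sets of a gene averaged, 1 gene of the 10 passed, Hamp (limma adjusted p = 0.0476), fewer genes being tested. Of all 31042 probe sets, 10 passed, 1093 under quantile normalization, 84 under it without Hamp, 63 under median centring and 4 to 27 with an array left out, 27 being without iron-deficient replicate 3. With a replicate block 1 probe set passed, the partners in iron sensing held 0 calls in place of 1, and Hamp had a limma adjusted p of 0.302. That list held 2 calls under quantile normalization and 3 under it without Hamp. The BMP ligand list held 1 under quantile normalization and 1 under median centring, and the inflammatory, erythroid and promoter factor lists 3, 3 and 4 under quantile normalization. These 4 lists held 0 calls with Hamp left out of that step. The cause was not tested.

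Signs of uncalled differences turned as follows. Under quantile normalization they were -1.04e-05 (Bmp6 1378827_at), 1.88e-05 (Bmp2 1368945_at), -1.84e-05 (Bmpr1a), 9.40e-04 (Smad4 1386984_at), -1.48e-05, -7.74e-05, -1.68e-05 and 3.10e-04 (Smad6), and 2.47e-05 (Smad7 1368898_at). With Hamp left out of it they were -4.59e-05 (Hjv), -5.90e-05 (Bmp6 1378827_at), -1.03e-04 (Bmpr1a), -1.00e-04 and 5.59e-04 (Smad4), and -4.21e-05, -7.74e-05, -1.68e-05 and 2.17e-04 (Smad6). Under median centring, which adds 5.06e-05 to every difference, they were 4.78e-05 (Bmp6 1378427_at), 4.89e-05 (Bmp2 1368945_at), 4.97e-05 (Smad4 1386984_at), 5.00e-05 (Smad6 1394025_at), and 4.56e-05 and 4.94e-05 (Smad7). With 1 array left out, ranges that crossed 0 were -4.75e-06 to 2.02e-05 (Hfe), -4.19e-06 to 5.62e-07 (Bmp2 1368945_at), -2.55e-06 to 1.19e-07 (Smad4 1386984_at), -7.20e-07 to 2.17e-06, -5.29e-08 to 8.17e-08 and -1.11e-06 to 5.73e-07 (Smad6), and -4.58e-08 to 1.19e-06 (Smad7 1368897_at). Hfe passed under quantile normalization (2.84e-04, limma adjusted p = 0.0329), but not with Hamp left out of that step (8.28e-05, 0.375). The numbers did not pair the arrays, and the block turned no sign and moved no other of these calls. Leaving out the dimmest 25% of probe sets, and eBayes with trend or robust options, turned no sign and changed no call of the probe sets they tested, 18 in the first case and 20 in the others.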
